A study of Oryza sativa with 3 samples.

Results

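The genes described here are rice calcium-dependent protein kinases (CPK, also written CDPK), calcineurin B-like calcium sensors (CBL), the CBL-interacting protein kinases that they activate (CIPK), and mitogen-activated protein kinases (MPK) with their activating kinases (MKK). They were taken by name: a gene belonged if its symbol or a synonym, without any Os prefix, was CPK, CDPK, CIPK, CBL, MPK or MKK followed by a number. Of 80 such genes in the gene table, 67 had a probe set assigned to a single gene, among 17905 genes read on the array. The 67 genes were 20 CPK, 24 CIPK, 7 CBL, 15 MPK and 1 MKK gene, and 62 of them were found through a synonym. The 13 genes without such a probe set were CPK11, CPK14, CPK25, CPK28, CIPK3, CIPK9, CIPK13, CIPK15, CIPK27, CIPK33, CBL1, CBL7 and MPK12, which are not analysed here.

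RNA of shoot-tip tissue from seedlings of the rice cultivar Hitomebore was labelled with biotin and read on 3 Affymetrix arrays, labelled as biological replicates 1 to 3 of the group CK shoot, an abbreviation that the labels do not spell out. Grains germinated for 2 days in darkness at 28 °C, and the seedlings then stood for about 48 h under 16 h of light and 8 h of dark at 26 °C. The series holds 1 group, so no contrast between conditions can be made. The sources used here do not state how many plants made up a sample.

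Calcium entering the plant cytosol is read by calmodulins and, described here, by protein kinases with built-in or separate calcium sensors. A CPK carries its calcium-binding EF-hands in the same chain as its kinase domain, whereas a CIPK has none and is switched on by a CBL protein that binds calcium and holds the kinase at a membrane. MAP kinases are the last step of a phosphorylation relay in which an MKK phosphorylates an MPK, and in plants they carry signals from immune receptors, cold, wounding and developmental cues. In rice these families are known mostly from salt, drought, cold, potassium supply and blast fungus responses.

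Values are log2 probe set values after robust multi-array averaging (RMA), and errors are SDs over 3 arrays. The median probe set read 4.91, 4.92 and 4.87 on replicates 1, 2 and 3. The brightest of 17 Tag control probe sets, taken as the background ceiling, had values of 4.98, 4.88 and 4.97. Brightness depends on the probe as well as on the RNA, so the order of genes by mean describes the signal on the array and does not rank their RNA amounts. Of the tissue markers, 6 of 6 leaf and greening genes exceeded this ceiling in every sample, while the meristem genes were dim. OSH6 and OSH71 lay above the ceiling in every sample and OSH43 below it. OSH71 read 6.67, 4.93 and 6.24, and OSH1 read 6.25, 3.73 and 6.47, both lowest on replicate 2. None of 3 alpha-amylase genes of the germinating grain lay above it. Among 4 grain storage protein genes the mean level was 5.03, 7.84 and 4.84 on replicates 1, 2 and 3. Of 4 root markers, NRAMP5 and LSI1 exceeded the ceiling in every sample and LSI2 and HKT1 in none.

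Most genes of these families gave signal in the shoot tip. On all 3 arrays, 56 of 67 lay above the background ceiling, against 81.3% of all genes, and 8 lay below it, against 15.4% of all genes. The remaining 3, all CIPK genes, crossed the ceiling between arrays, as did 3.27% of all genes. The shares over the families together were therefore close to those of the whole array. By family, 15 of 15 MPK genes, the MKK gene, 6 of 7 CBL, 19 of 24 CIPK and 15 of 20 CPK genes exceeded the ceiling in every sample. The genes below it on all arrays were CPK2, CPK6, CPK21, CPK22, CPK29, CIPK10, CIPK30 and CBL5. The median of the mean levels was 8.70 over the 67 genes and 8.28 over all genes, with family medians of 8.74 for CPK, 8.09 for CIPK, 9.51 for CBL and 9.08 for MPK genes. In the plot of levels by gene, most triplets of points overlap and the visible gaps lie near the ceiling.

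**Figure D1:**
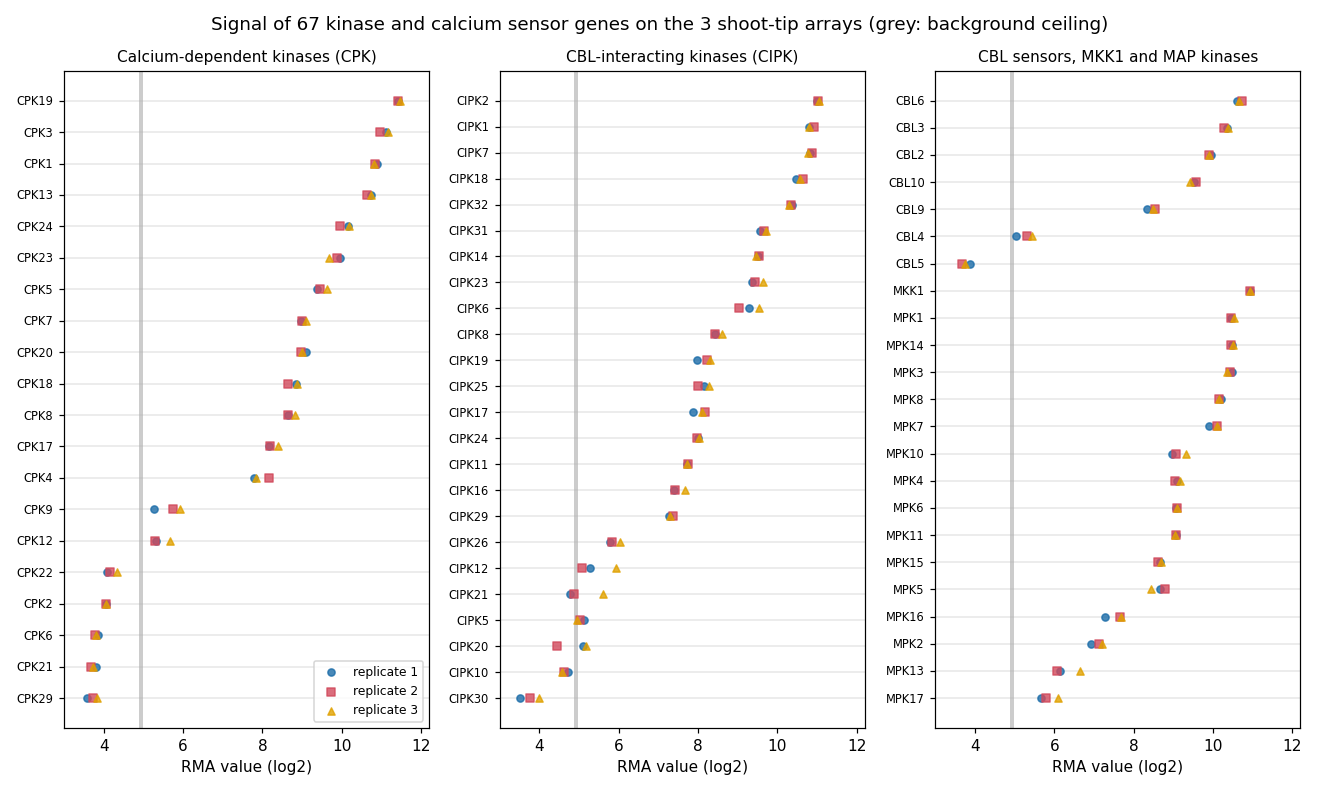
RMA value (log2, horizontal axis) of each of the 67 genes on replicates 1 (circles), 2 (squares) and 3 (triangles), by family; the grey band spans the background ceilings of the 3 arrays (4.88 to 4.98). All 15 MPK genes lie above the band, while 5 CPK genes, CIPK10, CIPK30 and CBL5 lie below it on every array.

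Of the calcium sensors, 6 of 7 CBL genes (85.7%) exceeded the background ceiling in every sample, beside 81.3% of all genes. CBL6 (LOC4351575) read 10.60, 10.74 and 10.65 on replicates 1, 2 and 3. CBL3 (LOC4333502) read 10.34, 10.26 and 10.37. CBL2 (LOC4352701) read 9.94, 9.90 and 9.91 and had the lowest SD of the family, 0.03 (n = 3). In Arabidopsis the sensors named CBL2 and CBL3 sit on the vacuolar membrane. CBL10 (LOC4325933), which in rice has been linked to germination under flooding, read 9.53, 9.57 and 9.42. CBL9 (LOC9269084) read 8.34, 8.53 and 8.49, from a probe set ending in _x_at, a kind that can also bind related transcripts. The other 2 sensors were dim. CBL4 (LOC4339432), which is the SOS3 of the salt pathway that controls sodium export, read 5.02, 5.31 and 5.44, only just above the ceiling of each array. CBL5 (LOC4325962) read 3.88, 3.66 and 3.75, below the ceiling throughout. The median SD of the 7 genes was 0.08.

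The CIPK family spanned the whole range from background to bright signal. CIPK2 (LOC4344287) read 10.99, 11.02 and 11.06 on replicates 1, 2 and 3. CIPK1 (LOC4325161) read 10.81, 10.91 and 10.81, and CIPK7 (LOC4333514) read 10.83, 10.88 and 10.77. These readings, from the brightest probe set of each gene, stayed within 0.11 log2 over the samples. Other probe sets above the ceiling varied more. For CIPK2 the next brightest read 7.60, 7.76 and 8.27, and for CIPK7 it read 5.26, 5.74 and 5.74. In Arabidopsis CIPK1 is a partner of the plasma membrane sensors CBL1 and CBL9. CIPK18 and CIPK32 also had means over 10, with 10.56 ± 0.09 and 10.34 ± 0.04 (SD, n = 3).

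Kinases known from ion transport were among those above the ceiling. CIPK23 (LOC4342410), which in rice activates the potassium channel AKT1, read 9.37, 9.45 and 9.63. CIPK24 (LOC4341477), the SOS2 kinase that works with CBL4, read 7.99, 7.98 and 8.02. The rice potassium channel gene AKT1 itself (LOC4326245) read 8.42, 8.53 and 8.52, also from an _x_at probe set.

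CIPK31 (LOC4332665), also listed as CK1, read 9.57, 9.67 and 9.72. CIPK11 (LOC107275263) read 7.73, 7.73 and 7.71, the lowest SD among CIPK genes above the ceiling, 0.01 (n = 3). Its probe set ends in _s_at, which can bind several transcripts. The remaining CIPK genes above the ceiling lay between 5.42 for CIPK12 and 9.50 for CIPK14.

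The CIPK genes with the highest SDs lay near background. CIPK12 (LOC4325613), a kinase known from drought tolerance of rice plants that overexpress it, read 5.27, 5.06 and 5.92. CIPK21 (LOC4344036), known from osmotic stress in Arabidopsis, read 4.78, 4.88 and 5.61, so that only replicate 3 lay above its ceiling. CIPK20 (LOC4338083) read 5.11, 4.44 and 5.17, with replicate 2 alone below. CIPK5, the third gene that crossed the ceiling, read 5.12, 5.02 and 4.95. CIPK10 (LOC4332786) read 4.71, 4.63 and 4.57, and CIPK30 (LOC4325611) read 3.50, 3.77 and 3.98, both below it throughout.

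The CPK family fell into 13 genes with means from 7.93 to 11.43, a pair just above the ceiling, and 5 genes below it. CPK19 read 11.41, 11.41 and 11.46 and had the lowest SD of the family above the ceiling, 0.03 (n = 3). CPK3 (LOC4327438) read 11.12, 10.95 and 11.17. CPK1 (LOC4326638) read 10.88, 10.85 and 10.81. These readings of each gene lay within 0.22 log2 of each other. CPK13, listed also as OsCDPK7, the kinase whose overexpression was found to raise cold and salt tolerance in rice, read 10.75, 10.65 and 10.74. CPK24, known from cold responses, read 10.15, 9.96 and 10.19. CPK23, listed also as SPK, a kinase first described in developing rice seeds, read 9.95, 9.89 and 9.69. CPK13 and CPK24 were lowest on replicate 2, and CPK23 on replicate 3.

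CPK18 (LOC4343002) and MPK5 (LOC4332475) are known as a kinase and its substrate in the response to blast fungus. CPK18 read 8.84, 8.65 and 8.87, and MPK5, also listed as BIMK1, read 8.66, 8.80 and 8.44. Replicate 2 was the lowest for CPK18 and the highest for MPK5, and a relation between them was not tested. CPK18 was read from an _s_at probe set, and its other probe set lay below the ceiling on all arrays. CPK4 (LOC4328155), studied in salt and drought tolerance, read 7.79, 8.17 and 7.82, higher on replicate 2 by 0.36 log2, or 1.29-fold, than the mean of the others. This is the array on which the grain storage genes were high and OSH1 and OSH71 were low, and their part in the value was not tested.

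Both genes just above the ceiling were highest on replicate 3. CPK9 (LOC4333767) read 5.26, 5.75 and 5.93, and CPK12 (LOC4336653), known from salt tolerance and blast susceptibility, read 5.33, 5.28 and 5.67. CPK21 (LOC4346187), also studied in salt stress, read 3.81, 3.68 and 3.72. CPK29 (LOC4351829) read 3.56, 3.72 and 3.83. Like CPK2, CPK6 and CPK22, these last genes gave no signal above the ceiling on any array.

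All MAP kinase genes and the MAP kinase kinase MKK1 lay above background in every sample. MKK1 (LOC4324023), also listed as MEK1, read 10.94 on each of the 3 arrays, with an SD of 0.0036. MPK1 (LOC4340170), also listed as SIPK and MAPK6 and known from the chitin response, read 10.45, 10.45 and 10.54. MPK14 (LOC9267958) read 10.47, 10.46 and 10.49. MPK3 (LOC4328297) read 10.49, 10.42 and 10.34. The gene listed under this name is not MPK5, which carries MPK3 as a synonym. MPK8 and MPK7 had means of 10.17 ± 0.03 and 10.04 ± 0.12 (SD, n = 3), and MPK11 (LOC4341010), the most even gene of the family, read 9.06, 9.07 and 9.04.

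The lowest mean signals of the family were those of MPK16, MPK2, MPK13 and MPK17. MPK16 (LOC4326567) read 7.29, 7.66 and 7.67, with replicate 1 the lowest. MPK13 (LOC4328223), also listed as BIMK2, read 6.15, 6.07 and 6.65. MPK17 (LOC4339697) read 5.65, 5.78 and 6.09, and like MPK13 was highest on replicate 3.

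The 3 samples agreed closely over these genes. The median SD was 0.10 over the 67 genes and 0.12 over all genes, and 35 of 67 had an SD under 0.1, against 40.9% of all genes. Family medians of the SD were 0.12 for CPK, 0.10 for CIPK, 0.08 for CBL and 0.07 for MPK genes. Of the 18 genes with a mean over 10, 15 had an SD under 0.1, against 60.4% of the 3863 genes of the array with such means, and the median SDs were 0.05 and 0.08. The median absolute difference between 2 arrays was 0.08, 0.11 and 0.09 log2 for replicates 1 and 2, 1 and 3, and 2 and 3, against 0.12, 0.14 and 0.14 over all genes. With the ceiling as the lowest value allowed, 5 of 67 genes ranged over more than 0.5 log2, against 8.79% of all genes. They were CIPK12, CIPK21, CPK9, MPK13 and CIPK6. CIPK6 (LOC4345687), which in Arabidopsis acts on the potassium channel AKT2, read 9.27, 9.04 and 9.54, and the other 4 had means under 7.

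No gene of these families passed an F test of variance built on the limma fit. The test asks whether a probe set varied more over the 3 arrays than others of like brightness. Of 57258 probe sets, 0% passed at an adjusted p of 0.05 (Benjamini-Hochberg) and 2.43% had an unadjusted p under 0.05, while 0 of the 67 probe sets used here did either. The smallest unadjusted p was 0.052 for CIPK21, followed by 0.062 for CIPK12 and 0.064 for CIPK20, each with an adjusted p of 0.94. A p that misses the threshold does not show that these genes did not vary. On simulated data with spread varying as here, the test called 0% of probe sets whose SD had been widened 3-fold. It called 6.5% of those widened 10-fold and 65% of those widened 30-fold, so the lack of calls says little about the spread of these genes. The same limma fit gave a 95% interval of 9.03 to 9.54 for the mean of CIPK6 and of 4.66 to 5.52 for that of CIPK21.

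**Figure D2:**
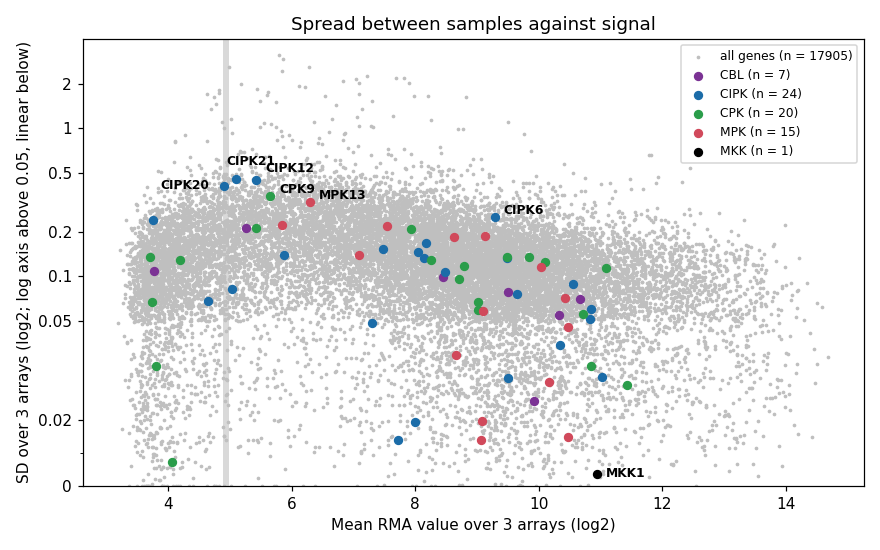
SD over the 3 arrays (log2, vertical axis, logarithmic above 0.05 and linear below) against the mean RMA value (log2) for all 17905 genes (grey) and the 67 genes by family (coloured); the grey band is the background ceiling. CIPK21, CIPK12 and CIPK20 have the highest SDs, 0.45, 0.45 and 0.41, and lie at or near the band, and MKK1 has the lowest.

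Replicate 3 gave the highest value for 38 of 67 genes, against 49.9% of all genes, replicate 2 for 15, against 24.7%, and replicate 1 for 13, against 22.8%. Replicate 1 gave the lowest value for 31 of 67, against 39.1% of all genes. Replicate 2 was lowest for 22 of 67, against 36.2%, and replicate 3 for 13, against 22%. These counts were close to those of the array as a whole. The shift of a gene on an array is the difference between its value there and its mean over the remaining arrays. The median shift over the 67 genes was -0.03, -0.02 and 0.07 log2 on replicates 1, 2 and 3, and over all genes -0.04, -0.03 and 0.07. CPK genes had median shifts of 0.11 on replicate 3 and -0.05 on replicate 2, against 0.07 and -0.03 over all genes. With the ceiling as the lowest value allowed, the CPK medians were 0.05 and -0.09, against 0.04 and -0.07 over all genes. The -0.09 is the difference between the ceilings, which every gene below the ceiling on all arrays then takes, and does not measure the CPK genes.

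The largest shifts on replicate 3 were those of dim genes. CIPK12 was higher there by 0.76 log2, or 1.69-fold. CIPK21 was higher by 0.78 log2, which is at least 1.60-fold against the ceiling of the arrays where it was below. MPK13 was higher by 0.54 log2, or 1.46-fold. All 7 genes that lay above the ceiling on every array with a mean under 7 (CPK9, CPK12, CIPK12, CIPK26, CBL4, MPK13 and MPK17) were highest on replicate 3, against 58.1% of the 2697 genes of the array in that range. This class of genes was chosen after its values were seen, and none of the 7 passed the variance test. Replicate 2 was the low array for CIPK6, by 0.37 log2, and for CIPK20, which was below the ceiling there and at least 1.20-fold lower than on the other arrays.

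**Figure D3:**
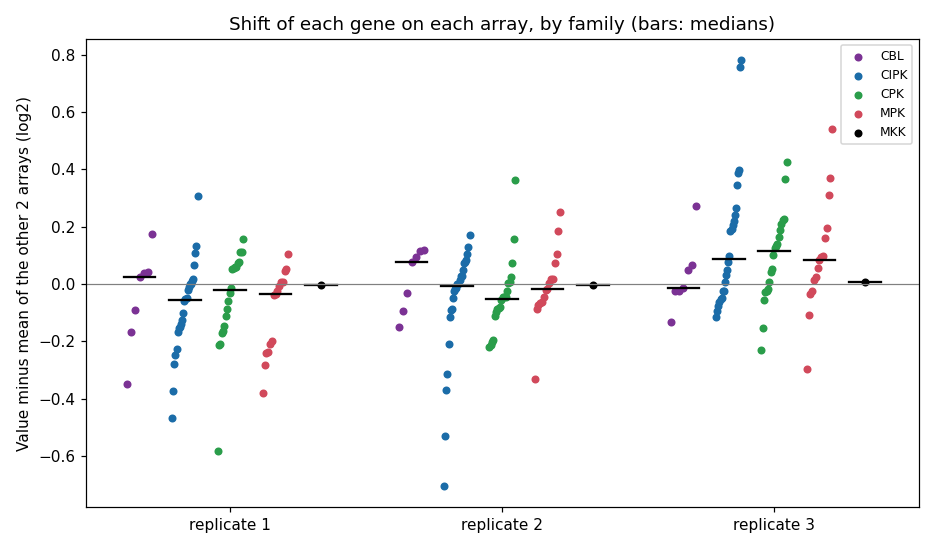
Shift of each gene on each array (its value there less its mean over the remaining arrays, log2), with a point per gene, coloured by family, and a bar at the family median. Most points lie within 0.3 of 0, and CIPK21 and CIPK12 lie highest on replicate 3. CIPK20 lies lowest on replicate 2, where its value is below the background ceiling.

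How a gene was read depended on which probe set was used, and 13 of the 67 genes had several. In 7 of these 13 the means of the probe sets differed by over 2 log2, against 55.8% of the 3444 genes of the array with several. In 5 of 13 a probe set exceeded the ceiling in every sample and another did so in none, against 40.8%. CIPK2 had probe sets with means of 11.02, 7.87 and 4.32, of which the brightest ends in _x_at. MPK8 had means of 10.17, again from an _x_at probe set, and 3.83. CIPK32 had means of 10.34 and 4.43, and CPK18 of 8.78 and 4.35, and for MPK8, CIPK32, CPK18 and CIPK12 (5.42 and 4.37) the call of signal rests on the brightest probe set alone. CIPK7 (10.83 and 5.58), CPK13 (10.71 and 5.86) and CIPK31 (9.65 and 6.43) also had gaps over 2 log2, with both probe sets above the ceiling on all arrays.

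For the other 5 genes the probe sets lay on the same side of the ceiling. All 4 probe sets of CIPK10 had means between 4.50 and 4.64, and both of CPK6 had a mean of 3.80 or 3.81, below the ceiling on all arrays. MPK10 had means of 9.12 and 8.98, CIPK23 of 9.48 and 9.13 and CBL9 of 8.45 and 7.22. Of the 67 genes, 9 were read from an _x_at or _s_at probe set, which is 13.4% against 11.4% of all genes.

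The order of the arrays could be read from each of the 2 brightest probe sets in 7 of the 67 genes. These had at least 2 probe sets above the ceiling in every sample, and both probe sets read the same samples. Both were highest on the same array in 1 of the 7 (CIPK2), against 55.4% of the 1856 such genes of the array. The second probe set of CIPK7 tied on replicates 2 and 3, and a tie was not counted. In 3 of the 7 (CIPK23, CIPK31 and CPK13) the highest and lowest arrays were exchanged, against 7.11%. The second probe set of CIPK31 was nearly flat, with an SD of 0.01, and that of CPK13 was dim, with a mean of 5.86. For CIPK23 the probe set used read 9.37, 9.45 and 9.63 on replicates 1, 2 and 3, and the other read 9.30, 9.18 and 8.92. For MPK10 the probe sets read 8.96, 9.08 and 9.33, and 9.06, 8.91 and 8.97. The 2 brightest probe sets of CIPK2, and both of CBL9, were lowest on replicate 1. In CIPK23, CIPK31, CPK13 and MPK10 the small differences between samples therefore depended on the probe set. This comparison was chosen after the data were seen, and the cause was not tested.

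**Figure D4:**
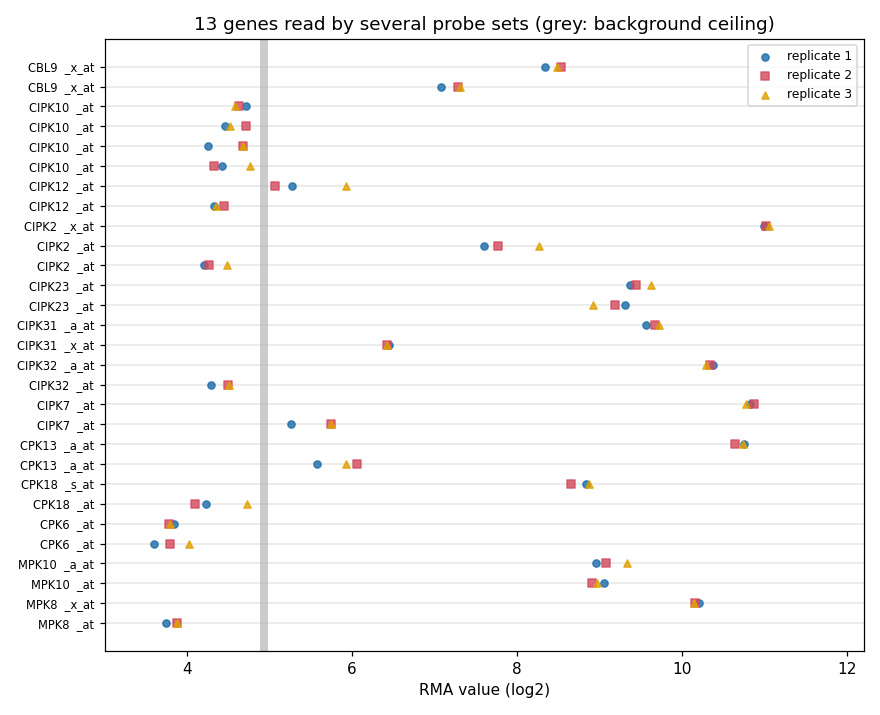
RMA value (log2) on each array for every probe set of the 13 genes with several, with the ending of the probe set's ID beside the gene name; the grey band is the background ceiling. CIPK2, MPK8, CIPK32, CPK18 and CIPK12 have probe sets on both sides of the band.

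Other genes of the same pathways were taken by symbol patterns: calmodulins and calmodulin-like proteins, calcium channels, pumps and exchangers, potassium transport, an NADPH oxidase, the calcium- and calmodulin-dependent kinase CCAMK, and chitin receptors with associated proteins. On all arrays, 55 of 71 lay above the background ceiling, 14 lay below it and 2 crossed it. That is 77.5%, beside 81.3% of all genes. CRK6 and CRK10, both below the ceiling, matched the kinase pattern by symbol only, and without them the share was 79.7% of 69. No gene matched the pattern for kinases that activate MKKs, nor one for SOS1 or a vacuolar sodium exchanger, so these steps are not analysed here.

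The calmodulins, calcium sensors without a kinase domain, gave bright signal: CAM3 (LOC4326903) read 13.09, 13.01 and 13.01, CAM1 12.43 ± 0.13 and CAM2 12.05 ± 0.10 (SD, n = 3). Of 26 calmodulin and calmodulin-like genes, 19 (73.1%) exceeded the ceiling in every sample, beside 81.3% of all genes. CML15 (LOC4338633), a calmodulin-like gene, read 4.56, 4.70 and 7.53, above the ceiling only on replicate 3, where it was at least 6.05-fold higher than on the others. It did not pass the variance test (unadjusted p = 0.00082, adjusted p = 0.85, F test on the limma fit with Benjamini-Hochberg). No gene of the 5 kinase and sensor families moved as far.

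Of 10 genes taken by name as calcium pumps and exchangers, 8 (80%) exceeded the ceiling in every sample, beside 81.3% of all genes. ACA10 (LOC4352664), a calcium ATPase, read 10.31, 10.22 and 10.25, and ACA5 (LOC4336912), the gene of this class with the widest range, read 8.14, 7.88 and 8.40. The calcium channel gene TPC1 (LOC4325272) read 10.52, 10.66 and 10.33. RBOHB (LOC4326027), an NADPH oxidase, the enzyme class that CPKs phosphorylate to release reactive oxygen, read 10.58, 10.30 and 10.30. CCAMK (LOC4339160), the kinase of root symbiosis signalling, read 8.80, 8.51 and 8.84. All of these were above background in every sample.

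Of 23 potassium transport genes, 18 (78.3%) exceeded the ceiling in every sample, beside 81.3% of all genes. HAK5 (LOC4326945), a high-affinity potassium transporter, read 12.76, 12.66 and 12.54, and HAK22 (LOC4342173) read 6.09, 6.94 and 6.83. All 6 genes listed by name with the chitin receptors lay above the ceiling, beside 81.3% of all genes. CEBIP, the chitin-binding receptor, read 9.90, 9.83 and 10.12, and its partner CERK1 (LOC4346173) read 9.64, 9.52 and 9.56. RLK10, which also carries the name CERK1, read 7.21, 7.27 and 7.32 from an _x_at probe set. The highest mean signal of this list was that of a gene listed as RAC1 (LOC4333919), which read 13.84, 13.76 and 13.76. Another gene of the same name (LOC4325879) read 9.60, 9.33 and 9.46. Both were taken by name alone, and whether the brighter one acts with the chitin receptors was not tested.

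**Figure D5:**
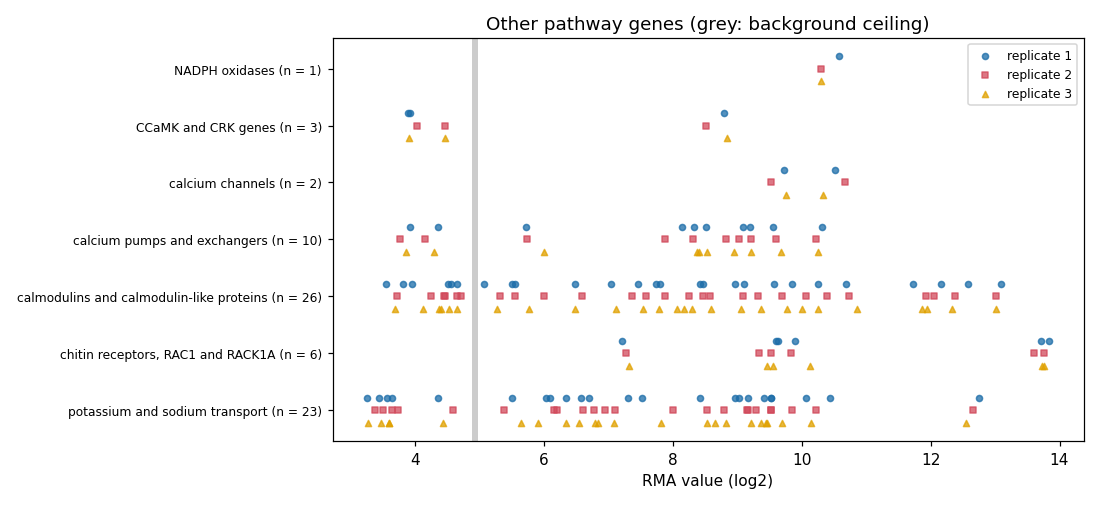
RMA value (log2) of 71 other pathway genes by class, with a point per gene and array; replicates 1, 2 and 3 are drawn in separate rows within a class and the grey band is the background ceiling. The calmodulin class spans means from 3.73 for CML32 to 13.04 for CAM3.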

How the data were processed

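RNA of 3 samples of 1 group was measured on Affymetrix rice arrays. Per the submitters' processing notes, the authors deposited log2 values made by RMA with the Affymetrix Expression Console software. Versions, settings and the genome build are not stated in these sources. RMA removes background signal and quantile-normalizes the arrays, which removes differences in total brightness and compresses dim values. The number of arrays limits the precision. The labels call the samples biological replicates, but nothing says how plants were divided among them, so p-values measure only the spread between these samples.

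Of 57381 probe sets, 123 controls were left out. Names came from the platform annotation, by which 22436 probe sets have 1 gene, 95 several and 34850 none listed, and from the gene table of assembly ASM3414082v1. The annotation and the gene table are joined by gene number. A gene with several names was given its own symbol, otherwise a name shared with no other gene. The brightest probe set stood for a gene. The test of spread used limma 3.58.1 and R 4.3.3 over 57258 probe sets (intercept-only fit, trended and robust eBayes, F test of the variance over its prior with the common prior degrees of freedom, Benjamini-Hochberg adjustment, threshold 0.05), and the code was tested on simulated data.

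The members and lists were chosen with earlier results of these data known. Values on every array were given by a rule for 38 genes: per family the 3 highest and 2 lowest means, the 3 highest SDs above the ceiling on at least 1 array and the lowest SD, then the 10 widest ranges and probe set gaps over 2 log2; per class of other pathway genes the highest mean and widest range. Other genes with values per array (CIPK5, CIPK23, CIPK24, CPK23, CPK24, MPK5, MPK10, AKT1, CERK1, RLK10, LOC4325879, OSH1 and OSH71) were chosen after their values were seen. The list of other pathway genes without CRK6 and CRK10 was an alternative added after seeing the data. The alternatives fixed earlier were another choice of probe set, ceiling, membership, normalization and variance prior, and leaving out a replicate. No protein or nucleotide sequence was used here.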

Additional observations from a re-analysis of the deposited data

How the results depend on the processing

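The count of genes above the background ceiling on all arrays was 48 to 57 and that below it 8 to 10 with the mean of all probe sets, without _x_at and _s_at probe sets (61 genes left), with the array median as the ceiling, or with a replicate left out, against 56 and 8. With genes taken by their own symbol alone, 5 CPK genes were left, of which 5 lay above the ceiling and 0 below, with a median SD of 0.060. The median SD, 0.10, was 0.076 with the ceiling as the lowest value allowed and 0.058 to 0.081 without each replicate in turn, and moved by less than its leave-one-out spread under the other settings. The variance test on the limma fit called 0 of these genes under each prior, filter and normalization tried, with 0 to 2 at an unadjusted p under 0.05. With only probe sets above the array median kept, 59 of the 67 were tested, and 51 of 28629 probe sets of the array were called. Under the other settings 0 of 57258 probe sets were called. Median shifts moved by less than the median SD under every setting tried. On replicate 2 the shift of -0.02 became 0.01 against replicate 1 alone, and 0.00030 when the values were quantile-normalized again, and on replicate 1 that of -0.03 became 0.05 with own symbols only, so the sign of these small medians depends on the setting. Of 152 alternative means of the 38 genes named by the rule, 142 moved by less than 1 SD, but these could not have moved further. With so few arrays, leaving a replicate out cannot shift a mean by 1 SD, and averaging leaves a gene with 1 probe set unchanged. The other 10 means came from averaging the probe sets of a gene. They cover every gene named by the rule that had several probe sets, so these means depend on the choice of probe set. The count of other pathway genes above the ceiling was 48 to 56 against 55. No paired analysis was possible because there is 1 group. Membership by protein motifs was not run, since no protein sequence was used here. Probe brightness limits what can be said of genes near the ceiling, where values have no order below it.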

Other observations

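In the gene order of assembly ASM3414082v1, 2 pairs of CIPK genes that were both read on the array lie next to each other. On chromosome 7, CIPK2 and CIPK29 have no gene between them, and their means were 11.02 and 7.30, both above the ceiling. The first comes from an _x_at probe set, and the other probe sets of CIPK2 had means of 7.87 and 4.32. On chromosome 1, CIPK30 and CIPK12 have no gene between them, and CIPK30 lay below the ceiling on all arrays while CIPK12 lay above it on all, though the second probe set of CIPK12 lay below it as well.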
